A study of Ambystoma mexicanum with 8 samples.

Results

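LYVE1/MMRN1-low endothelial cells are the limb cells of the axolotl, Ambystoma mexicanum, that carried transcripts of several endothelial genes and almost none of LYVE1 and MMRN1. The cells were chosen by their own counts. A cell was a member if it held at least 500 genes and at least 3 different genes of VWF, CDH5, KDR, TEK, EGFL7, TIE1, ERG, ESAM and PECAM1. The fibroblast genes COL1A1, COL1A2, COL3A1, DCN and LUM, and the keratins KRT5, KRT12, KRT15 and KRT76, each had to stay below 1% of its UMIs, the molecular identifiers that count each captured RNA molecule once. LYVE1 and MMRN1 together had to stay below 3 UMIs. In all, 308 of 33860 cells met this rule, or 0.910% of them (exact 95% interval 0.811 to 1.02). They were 13.2% (11.9 to 14.7) of the 2330 cells that met the rule without its last step, and the other 2022 cells, with at least 3 UMIs of LYVE1 and MMRN1, are called the LYVE1 MMRN1 set here. The intervals cover counting error only.

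The cells came from 8 droplet libraries of wild-type limbs, 4 named Intact, from homeostatic animals, and 4 named Contra, taken for the limbs that the design describes as systemically activated and sampled 14 days after an amputation. The labels do not spell Contra out and give no age and no number of animals. Live cells were stained for DNA and sorted for a content of 4 C, which the protocol calls dividing, and which a pair of attached cells with single content also reaches. Replicates are libraries, and since nothing says that each came from its own animal, p-values measure the spread between these libraries, which may be technical.

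Blood vessels and lymphatic vessels are lined by related endothelial cells. VE-cadherin (CDH5), VEGF receptors and angiopoietin receptors are shared by both, whereas lymphatic endothelium of mammals is set by the transcription factor PROX1 and carries the hyaluronan receptor LYVE1 and the VEGF-C receptor FLT4. LYVE1 also occurs on some venous, sinusoidal and macrophage populations, so that it alone does not name a vessel. In non-mammalian vertebrates, clotting is carried by nucleated thrombocytes, which share several surface genes with endothelium.

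The endothelial genes that made the rule are given as a description. VWF, the clotting protein stored in endothelial granules, was found in 81.5% of the low cells and in 98.6% of the LYVE1 MMRN1 set. ESAM, a junction molecule of endothelium and platelets, was found in 67.5% and 26.9%, and PECAM1, another adhesion molecule, in 64.6% and 73.5%. CDH5 was found in 61.7% and 90.6%, TIE1 in 59.4% and 85.4%, KDR in 49.0% and 54.9%, EGFL7 in 47.4% and 76.6% and TEK in 36.7% and 65.4%. ERG, an endothelial transcription factor, was found in 1 low cell. The median low cell held 5139.5 UMIs and the median cell of the other set 9519, and the part of depth in these differences in detection was not tested.

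Among cells that should lack these genes, CDH5 was found in 0.898% of 2227 keratin-rich cells (median 4307 UMIs) and in 2.24% of 9702 collagen-rich cells (median 14961 UMIs). VWF was found in 5.97% and 13.7% of the same cells, which had at least 5% of their UMIs in the keratins or in the fibroblast genes of the rule. LYVE1 or MMRN1 had at least 1 UMI in 12.03% of the keratin-rich and 23.6% of the collagen-rich cells, and at least 3 UMIs in 0.359% and 3.08%. Of the low cells, 108 held 0 UMIs of LYVE1 and MMRN1, 108 held 1 and 92 held 2. Just outside the limit, 91 cells held 3, 75 held 4 and 62 held 5. At the other limit, 123 low cells held exactly 3 endothelial genes, with a median of 9094 UMIs, and 185 held 4 or more, with a median of 3611. A further 517 cells had only 2 and were left out.

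Median depth over all cells of a library ranged from 4142.5 to 15398.5 UMIs in Intact and from 4860.5 to 12219 in Contra. The low cells numbered 5, 32, 29 and 16 in Intact 1, 3, 4 and 5, and 60, 50, 66 and 50 in Contra 1, 2, 3 and 5. Across all cells 135 barcodes occurred in more than 1 library, which involved 1 low cell, and no barcode was shared between low cells of different libraries. A doublet caller marked 104 cells in all and 1 low cell, too few for it to have worked, and 16 low cells were among the 1361 cells with the highest doublet scores. Intact 1, with 5 low cells, is shown in each result, but 1 UMI there is worth 95.8 CPM, against 1.40 CPM in Contra 3. CPM is a count scaled to an equal total for every library, here without further normalisation.

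The label held for most low cells and not for all. Clustered alone, the 308 cells fell into 12 sub-clusters, which are described without a test because the same genes formed them. Levels are means of the cells' CPM, and a marker is called raised where it reached 20 CPM, was found in 20% of the cells and stood at least 4 times above the lower quartile over sub-clusters. In sub-clusters 1, 3, 6, 7 and 8, with 167 cells or 54.2% of the total, 18 to 21 of 30 endothelial markers outside the rule were raised. These 5 are called the marker-rich sub-clusters, and of their 167 cells 149 held 4 or more of the rule's endothelial genes. Sub-clusters 3 and 7 were given no name, though they raised 21 and 19 of the 30, against 18, 18 and 20 in sub-clusters 1, 6 and 8. In sub-clusters 2, 5, 9, 10, 11 and 12, with 112 cells or 36.4%, at most 8 of the 30 were raised, and 91 of the 112 held exactly 3. Sub-cluster 4, with 29 cells, raised 14 of the 30 beside lymphatic markers.

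**Figure D1:**
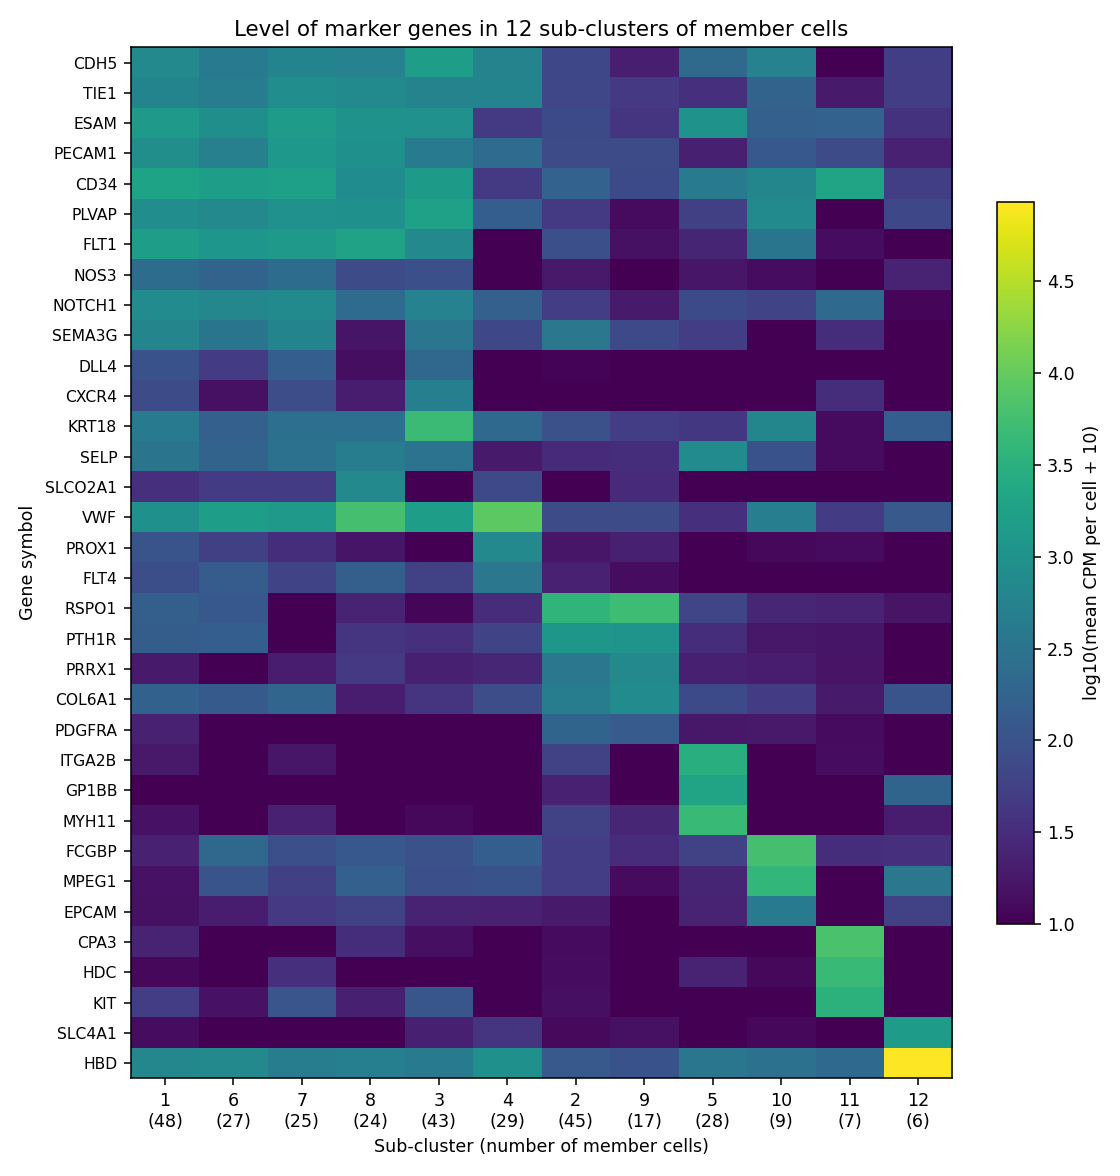
Colour gives log10 of the mean CPM per cell plus 10 for marker genes (rows) in the 12 sub-clusters of the 308 low cells (columns, with the number of cells). CDH5, TIE1, CD34, PLVAP and FLT1 are high in sub-clusters 1, 6, 7, 8 and 3 on the left, PROX1 and VWF peak in sub-cluster 4, and RSPO1, ITGA2B, FCGBP, CPA3 or HBD lead sub-clusters further right.

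Endothelial-like sub-cluster 1 (48 cells) was led by SOX6, GALNT18, FLT1 and NOS3. FLT1, the VEGF receptor that also acts as a decoy, lay at 1602 CPM and was found in 81% of the cells, and NOS3, the endothelial nitric oxide synthase, lay at 236 CPM. Of 18 arterial markers 6 were raised, as many as in sub-cluster 7 and fewer than the 8 of sub-cluster 3, beside 4 of 10 venous ones. Among the arterial ones were NOTCH1 at 779 CPM, SEMA3G at 614 CPM and DLL4, a NOTCH ligand of arteries and tip cells, at 89 CPM. Sub-cluster 2, which raised connective tissue markers, also raised 5 of the 18 arterial ones, with SEMA3G at 348 CPM. Other arterial and capillary genes of mammals were uneven over the low cells. GJA4 had 0 UMIs in all, GJA5 8 and HEY2 12, whereas SLC2A1, the glucose transporter, had 471 in 107 cells.

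Sub-cluster 3 (43 cells) had the most endothelial markers, 21 of 30, and also 8 of 18 arterial and 9 of 16 tip-cell markers. It was led by KRT18, a keratin of simple epithelia, at 4717 CPM and found in 100% of its cells, so it was given no name. CXCR4, the CXCL12 receptor of migrating tip cells, followed at 494 CPM and ID3, a target of BMP signals, at 705 CPM. CDH5 reached 1550 CPM, APLNR, the apelin receptor, 801 CPM and DLL4 196 CPM. KRT5, KRT12, KRT15 and KRT76 are in the rule and KRT18 is not.

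Endothelial-like sub-cluster 8 (24 cells) raised 5 of 10 venous genes, as did sub-cluster 7, and sub-clusters 1, 3 and 4 raised 4 each. Sub-cluster 8 was led by SLCO2A1, the prostaglandin transporter, at 697 CPM, with ADGRG6 and RAMP2, the partner protein of the adrenomedullin receptor. VWF lay at 5910 CPM, NR2F2, the transcription factor of veins, at 206 CPM and FLT1 at 1808 CPM, whereas SEMA3G lay at 7 CPM. Endothelial-like sub-cluster 6 (27 cells) and unnamed sub-cluster 7 (25 cells) were shallow, with medians of 1940 and 2033 UMIs. They raised 18 and 19 of the 30 endothelial markers, and sub-cluster 6 was led by several identifiers named CHK1 and by MUC4, sub-cluster 7 by PLEKHG1 and BEGAIN.

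Lymphatic-like sub-cluster 4 (29 cells) raised 6 of 15 lymphatic markers other than LYVE1 and MMRN1: PROX1, FLT4, STAB1, TBX1, SEMA3A and PIEZO2. FLT4, STAB1 and TBX1 were also raised in sub-clusters 1, 6 and 7, SEMA3A and PIEZO2 in sub-clusters 2 and 9, and PROX1 in no other. Sub-clusters 1 and 9 raised 4 of the 15 each. PROX1 lay at 689 CPM and was found in 55% of the cells, against 11.04% of all low cells. FLT4 lay at 352 CPM, VWF at 8721 CPM and ANGPT2, the TEK ligand that loosens vessels, at 623 CPM, while FLT1 and DLL4 had no UMI. The cells were the shallowest, with a median of 1614 UMIs against 9174 in the libraries they came from, and held a median of 1 UMI of LYVE1 and MMRN1. The low level of LYVE1 and MMRN1 and the low depth of these cells cannot be told apart here.

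The other sub-clusters carried genes of other limb cells. Connective tissue-like sub-clusters 2 (45 cells) and 9 (17 cells) raised 6 and 5 of 7 connective tissue markers, among them PRRX1 and PDGFRA. RSPO1, a WNT-potentiating secreted protein, lay at 3712 and 5085 CPM and PTH1R, the parathyroid hormone receptor, at 1199 and 1066 CPM. Thrombocyte-like sub-cluster 5 (28 cells) raised 9 of 9 thrombocyte markers. ITGA2B and GP1BB, parts of the fibrinogen and von Willebrand factor receptors of platelets, lay at 2866 and 1945 CPM. ESAM was found in 100% of these cells, CDH5 in 89% and KDR in 79%, and VWF in 18%. All of these are genes of the rule that chose the cells, and 25 of the 28 cells held exactly 3 rule genes. Sub-cluster 10 (9 cells) was led by FCGBP and also by MPEG1, a perforin-like gene of macrophages, raised 6 of 6 epidermal markers and was not named. Sub-cluster 11 (7 cells) was led by cathepsins and by CPA3, HDC and KIT, genes of mast cells of mammals, and was not named since no such marker list was used. Erythroid-like sub-cluster 12 (6 cells) raised 6 of 8 erythroid markers. The globin HBD was found in 48% to 100% of every sub-cluster and in 79.4% of the keratin-rich cells, and what free RNA adds was not tested. HBD lay at 85851 CPM in sub-cluster 12 and at 89 to 924 CPM in the others.

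Of markers of further types, PAX7 of muscle progenitors had 5 UMIs in all low cells and SOX10 of Schwann cells 1. The mural list was uneven. ACTA2, the actin of mural cells, had 8 UMIs, whereas PDGFRB, the PDGF receptor of mural and connective tissue cells, had 102 and 75 over 2 identifiers (38.2 and 28.1 CPM against 6.44 and 6.66 in the LYVE1 MMRN1 set), RGS5 176 (65.9 against 108 CPM) and the smooth muscle myosin MYH11 982 (368 against 12.5 CPM). MYH11 lay at 4452 CPM in thrombocyte-like sub-cluster 5, found in 100% of its cells, and next highest at 47 CPM in sub-cluster 2. Summed over a library, the mural list, MYH11 included, lay between 159 and 682 CPM in the low cells and between 97.3 and 283 CPM in the other set. The erythroid list lay between 187 and 130965 CPM, the macrophage list between 95.8 and 15966 CPM and the thrombocyte list between 703 and 2606 CPM in the low cells. For these sums the globins HBG1, HBD and HBZ were added to the erythroid list, which lacked them where markers were counted as raised. In the LYVE1 MMRN1 set the same lists lay between 176 and 6834, 160 and 3784, and 632 and 861 CPM. CTSS, a cathepsin of the macrophage list, was a leading gene of sub-cluster 11, with 7 cells.

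The make-up differed from library to library. The connective tissue-like sub-clusters held 14 of 32 low cells in Intact 3 (43.8%) and none of the 5, 29 and 16 in Intact 1, 4 and 5. They held 17 of 60 in Contra 1, 10 of 50 in Contra 2, 17 of 66 in Contra 3 and 4 of 50 in Contra 5. The sub-clusters with 18 or more endothelial markers held 25% of the low cells in Intact 3 and 75.9% to 87.5% in the other Intact libraries, and 40.9% to 68.0% in Contra. Intact 3 thus stood apart from the other Intact libraries. Median depth over all cells was 8641, 15398.5, 5301 and 4142.5 UMIs in Intact 1, 3, 4 and 5. In Contra 1, 2, 3 and 5 it was 11069, 9253, 12219 and 4860.5 UMIs. The connective tissue-like low cells held a median of 15929.5 UMIs, and the part of depth in the make-up was not tested. Sub-cluster sizes were not compared between the groups, since the genes that formed the sub-clusters could differ between them.

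**Figure D2:**
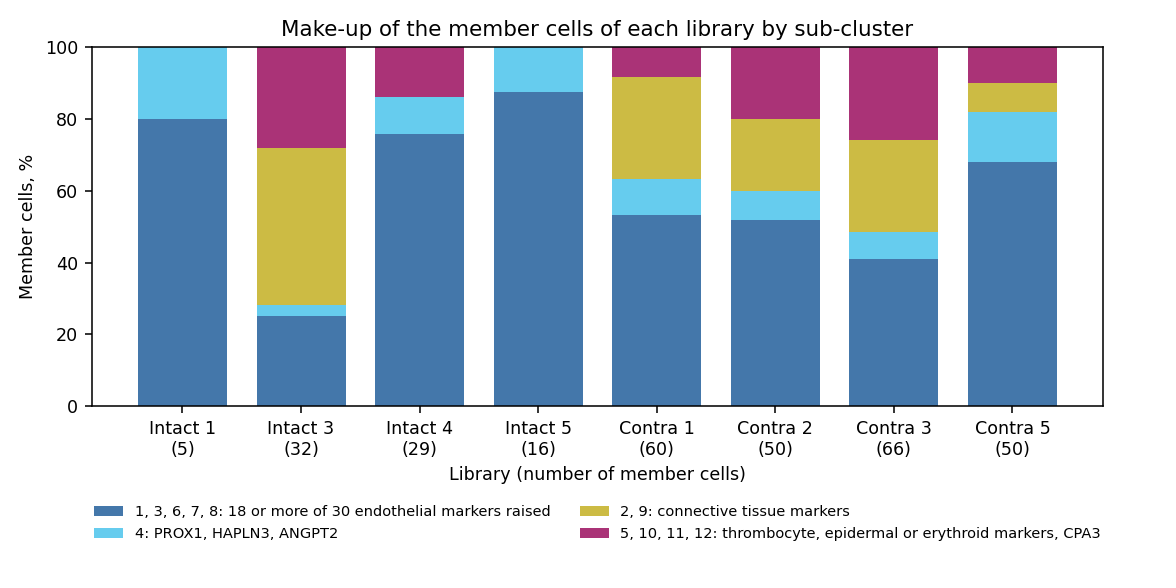
Stacked bars give the percentage of low cells of each library (number of cells in brackets) in 4 kinds of sub-cluster. Connective tissue-like cells make up 43.8% of Intact 3 and are absent from the other Intact libraries.

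Whether more of these cells lay in the 4 C gate of Contra limbs was asked of their share per library. They made up 0.313%, 0.772%, 0.908% and 0.806% of cells in Intact 1, 3, 4 and 5, and 1.29%, 0.808%, 0.900% and 1.05% in Contra 1, 2, 3 and 5. The groups overlap, with Intact 1 the lowest and Contra 1 the highest library. The means were 0.700% ± 0.264 (SD, n = 4) and 1.01% ± 0.210 (SD, n = 4), a difference of 0.312 points that was within the spread between libraries (2-sided exact permutation test, p = 0.114, 0.457 adjusted over 4 such comparisons). As a share of all cells that met the endothelial rule they were 14.7% ± 6.93 and 14.5% ± 3.33 (difference -0.184 points, exact permutation p = 0.943, adjusted 1). With 4 libraries against 4 the smallest possible p is 0.0286.

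Depth was read beside the shares. The median low cell held 1540, 14366.5, 3238 and 1803 UMIs in Intact 1, 3, 4 and 5, and 4862.5, 4740, 8017 and 3606.5 in Contra 1, 2, 3 and 5. The means of these medians were 5237 and 5306.5 UMIs (exact permutation p = 1), and without Intact 3, which lay far above the rest, the difference went from 69.6 to 3113 UMIs (exact permutation p = 0.0571). The libraries numbered 1 and 3 of both groups were also read apart from the others, with 2 libraries per group in each and no test. Contra minus Intact, the share among all cells came to 0.552 points in the first pair of numbers and 0.0717 points in the rest. The share among endothelial cells differed by 2.44 and -2.80 points.

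**Figure D3:**
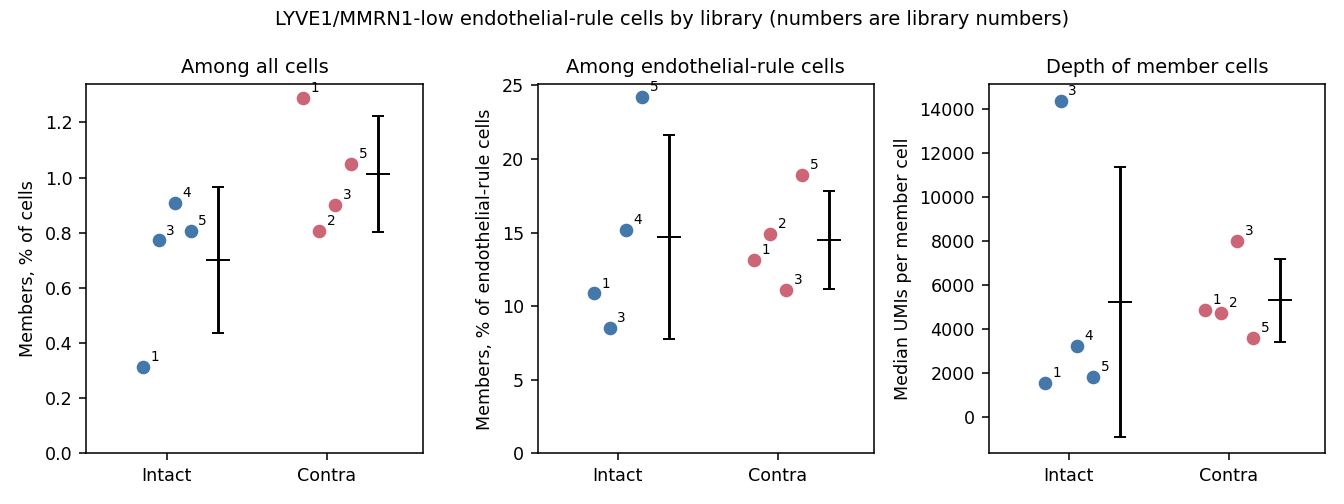
Points are libraries, marked with their number, and black bars are the mean and SD of 4 libraries. The left and middle panels give low cells as a percentage of all cells and of cells that met the endothelial rule, the right panel the median UMIs per low cell. The groups overlap in each panel, and Intact 3 lies alone at 14366.5 UMIs.

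Genes differing between Contra and Intact were sought in counts summed over the low cells of each library. In such sums a change in the mix of cells and a change within cells cannot be told apart. Of 7222 genes tested with edgeR's quasi-likelihood test, 0 (0.0%) had an adjusted p below 0.05, while 131 had a raw p below it. By DESeq2 the numbers were 0 and 92. In simulated counts with known changes edgeR recovered 1% of log2 changes of 1 and 41% of changes of 2 between the groups. The simulation gave every gene the same dispersion and held no difference in make-up between libraries, so recovery in the real counts may differ. The named genes that follow, 10 in each direction, had the smallest raw p among genes with a symbol. None passed, and each had an edgeR adjusted p of 0.9998. Choosing them by smallest p favours genes whose groups do not overlap, and the share of all genes without overlap was not counted.

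PKDCC, a secreted kinase of connective tissue and skeleton, had the smallest p of these on the lower side. It lay at 287, 307, 298 and 346 CPM in Intact 1, 3, 4 and 5, and at 99.3, 46.0, 122 and 97.0 CPM in Contra 1, 2, 3 and 5. Every Intact library was above every Contra library, a log2 difference of -1.55 ± 0.39 (SE). In the LYVE1 MMRN1 set the same gene overlapped between the groups, at 73.7 to 135 CPM in Intact and 92.6 to 137 CPM in Contra. The test of that difference between the sets, an interaction of set and group, gave -1.86 ± 0.36 on the log2 scale (edgeR, adjusted p = 0.401). DESeq2 called it (-1.97, adjusted p = 0.00432), the single gene of 9853 (0.0101%) it called in that test. Over all alternatives its adjusted p ranged from 0.00432 to 1, and of these edgeR without a filter on low counts also called it (0.0262). Within the low cells PKDCC lay at 299 CPM in sub-cluster 6 and 288 CPM in sub-cluster 2, and was highest in sub-cluster 8.

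Other genes on the lower side also did not pass, and some overlapped between the groups. EXOC3L2, a VEGF-responsive exocyst gene, lay at 1150, 61.5, 638 and 986 CPM in the Intact libraries and at 183, 128, 44.7 and 141 CPM in Contra (-2.03 ± 0.70). EPHB4, the ephrin receptor of veins, lay at 479, 26.9, 153 and 133 against 35.0, 33.9, 15.4 and 35.3 CPM (-1.82 ± 0.64). In both, Intact 3 was the one Intact library that did not lie above the Contra values. CCN1, a matrix protein induced by mechanical signals, lay at 0, 217, 468 and 666 against 42.8, 7.27, 76.9 and 118 CPM (-2.33 ± 0.81), and SLC2A1 at 95.8 to 459 against 72.7 to 147 CPM. PKDCC, EXOC3L2, CCN1 and OTULINL all had their highest mean in sub-cluster 8 (569, 1024, 842 and 610 CPM), which held 10 of the 29 low cells of Intact 4. Its part in these values was not tested. GRIA3, OTULINL, RNF227 and RASAL2 had log2 differences of -1.48, -1.06, -1.14 and -0.86. WEE2-AS1 (AMEX60DD042132), named as an antisense gene, lay at 95.8 to 1116 CPM in Intact and 125 to 308 CPM in Contra, and without a stated use of strand it cannot be told from its partner.

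On the higher side TUBA1B, an alpha tubulin, lay at 0, 30.7, 42.5 and 79.9 CPM in Intact and at 103, 109, 115 and 165 CPM in Contra, with no overlap (log2 difference 1.78 ± 0.49). CXCR4 lay at 0, 5.76, 17.0 and 53.3 CPM in Intact and at 42.8, 55.7, 102 and 61.7 CPM in Contra (2.49 ± 0.69), and Intact 5 overlapped Contra 1. It had UMIs in 28 low cells, and its highest level was in sub-cluster 3. NCAM1, an adhesion molecule, lay at 0 to 42.3 CPM in Intact and 74.0 to 107 CPM in Contra (1.71 ± 0.51). HPSE2, a heparanase relative, lay at 0 to 57.6 against 67.6 to 167 CPM (1.61 ± 0.46), and within the low cells at 265 CPM in connective tissue-like and 18 CPM in the 5 marker-rich sub-clusters. ID3 lay at 13.4 to 192 against 93.6 to 171 CPM. The other 5, ATP6V0E1, CHMP4B, TRPM7, RADIL and PSMA6, had log2 differences of 1.41 to 2.03, and for RADIL, the highest, 1 cell gave 49.7% of the UMIs.

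Of the gene lists, none had a called member in this comparison. The G2 and M phase list had 24 identifiers tested, 19 of them above 0 on the log2 scale, with a median of 0.45 against 0.12 over all genes tested (0.01 with library totals in place of TMM factors). The list of further endothelial genes had 25 tested, 21 of them below 0 (median -0.51), and the connective tissue list, which holds the fibroblast genes of the rule, 11, all above 0 (median 1.02). The make-up given above differed between libraries, and its part in these values was not tested. Without Intact 3 edgeR called 118 of 6923 genes (1.7%), 107 with a higher level in Contra (1.55%) and 11 with a lower one (0.159%). Of the 107, 106 were higher in the connective tissue-like than in the 5 marker-rich sub-clusters, as were 0 of the 11 and 58.9% of all genes tested. The same cells and counts formed the sub-clusters, and without Intact 3 no Intact low cell lay in the connective tissue-like ones. This count is therefore a description, and the part of make-up in the calls was not tested. Without Intact 3 the connective tissue list had 7 of 10 identifiers called higher. HPSE2, EXOC3L2 and EPHB4 passed there as well, with edgeR adjusted p of 0.0395, 0.0211 and 0.0292.

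Over all genes the interaction gave 0 calls of 9853 (0.0%) by edgeR, where 271 had a raw p below 0.05, and 1 by DESeq2, with 215. In simulated counts of the same kind as above the edgeR interaction recovered 0% of log2 changes of 1 and 0% of changes of 2. Its lack of calls therefore cannot show that the sets did not differ. After PKDCC, the smallest p belonged to VSTM2L, COL6A5, CCN1 and HARBI1. VSTM2L was found in 14 low cells, 1 of which gave 73.3% of its UMIs. COL6A5, a chain of type VI collagen, lay at 0 to 104 CPM in Intact and 47.04 to 294 CPM in Contra low cells (interaction 1.98 ± 0.43, edgeR adjusted p = 0.802). Its mean was 336 CPM in the connective tissue-like and 11 CPM in the 5 marker-rich sub-clusters.

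The low cells were then compared with the LYVE1 MMRN1 set of the same libraries, with library as a block. LYVE1 and MMRN1 separated the sets, so genes that go with them in a cell are described as what the limit separated and support nothing further. Of 8002 genes edgeR called 3335 (41.7%), 1404 higher (17.5%) and 1931 lower (24.1%) in the low cells. The split depends on scaling. With library totals in place of TMM factors 4016 were called (50.2%), 2392 higher (29.9%) and 1624 lower (20.3%). The share of higher calls moved from 42.1% to 59.6%, and the median log2 difference of all genes moved from 0.08 to 0.25 (-0.02 under DESeq2). Because 36.4% of the low cells lay outside the marker-rich and lymphatic-like sub-clusters, lists and genes were also read in cells with 4 or more endothelial genes in both sets. There edgeR called 2076 of 5377 genes (38.6%), 848 higher (15.8%) and 1228 lower (22.8%). Asking for 4 genes favours, among shallow cells, those rich in endothelial RNA.

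Lymphatic genes other than LYVE1 and MMRN1 lay lower in the low cells. Of 10 identifiers tested 9 were called lower and 1 higher, where 24.1% and 17.5% of all genes were. The list median was -2.81 against 0.08 over all genes. With 4 or more endothelial genes 7 of 8 were lower and 1 higher (median -2.11). The higher one was NFATC1, a transcription factor of heart and lymphatic valves. Within the low cells NFATC1 was raised in sub-clusters 5 and 11 only, so in no marker-rich and not in the lymphatic-like sub-cluster. PROX1 lay at 0 to 79.8 CPM over the 8 libraries, with a median of 21.8, in the low cells and at 275 to 520 CPM, with a median of 359, in the LYVE1 MMRN1 set. The log2 difference was -3.79 ± 0.38 (edgeR adjusted p = 5.44e-07), and -3.30 with 4 or more genes. FLT4 lay at 25 to 95.8 (median 41.9) against 250.4 to 430 CPM (median 320.3) (-3.17 ± 0.24), and STAB2 (AMEX60DD008383), a hyaluronan scavenger receptor, at 0 to 21.4 against 89.7 to 223 CPM (-3.59 ± 0.24). The ranges of the sets did not overlap for these 3 genes, and with 4 or more genes FLT4 and this STAB2 identifier differed by -2.27 and -3.18. NR2F2, which vein and lymphatic endothelium share, lay at 0 to 55.9 (median 39.8) against 215 to 424 CPM (median 342) (-3.46 ± 0.31), and ANGPT2 at 0 to 41.2 against 243 to 412 CPM (-3.63 ± 0.30), with -2.67 and -2.72 under the stricter rule.

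**Figure D4:**
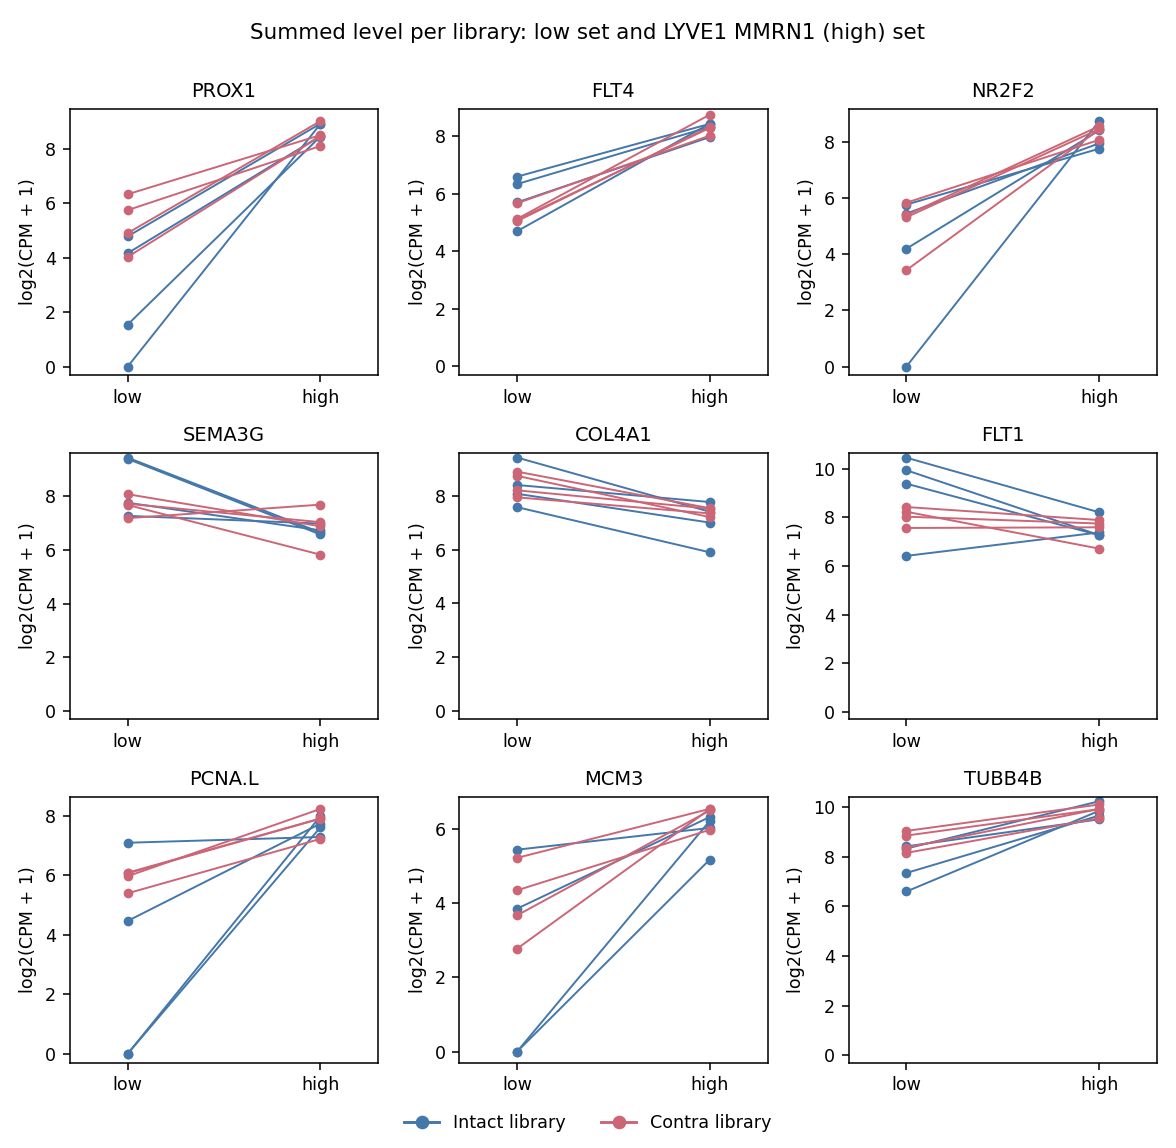
Each line joins the low cells and the LYVE1 MMRN1 set of 1 library, as log2(CPM + 1) of summed counts, for 9 genes. PROX1, FLT4, NR2F2, PCNA.L, MCM3 and TUBB4B are lower in the low cells of 8 of 8 libraries, COL4A1 is higher in 8 of 8, SEMA3G in 7 of 8 and the FLT1 identifier shown in 6 of 8.

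Of further endothelial genes outside the rule, 2 of 29 tested identifiers were called higher and 17 lower over all low cells (median -0.91), against 17.5% and 24.1% of all genes. With 4 or more endothelial genes 6 were higher and 7 lower of 27 (median -0.12). Venous genes had 1 higher and 9 lower of 12, and 1 and 2 of 9. The genes named next were chosen with earlier results known and do not stand for these lists. COL4A1 and COL4A2, the chains of the basement membrane's type IV collagen, were higher in both readings and in 8 of 8 libraries. COL4A1 lay at 192 to 693 CPM (median 318) in the low cells and at 58.9 to 219 CPM (median 166) in the other set (1.03 ± 0.17, edgeR adjusted p = 0.00012, and 1.56 with 4 or more genes). Over the alternatives its edgeR adjusted p ranged from 1.28e-06 to 0.0231, and its mean was 511 CPM in the 5 marker-rich and 522 CPM in the connective tissue-like sub-clusters. COL4A2 lay at 188 to 485 against 94.3 to 218 CPM (0.81 ± 0.18, edgeR adjusted p = 0.00115), and without a filter on low counts its call ended (edgeR adjusted p = 0.295). Its mean was 357 CPM in the 5 marker-rich and 536 CPM in the connective tissue-like sub-clusters. SEMA3G, a semaphorin of arteries, lay at 144 to 693 (median 212) against 55.5 to 205 CPM (median 111) (0.98 ± 0.24, edgeR adjusted p = 0.00287, higher in 7 of 8 libraries). Its mean was 406 CPM in the 5 marker-rich and 270 CPM in the connective tissue-like sub-clusters. It was found in 53.9% and 72.6% of their cells. Restricting the low set to cells with 0 UMIs of LYVE1 and MMRN1 ended the call of SEMA3G (edgeR adjusted p = 0.322, the highest over its alternatives), and so did setting cells with 0 against cells with 10 or more (0.0589).

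FLT1 had 2 tested identifiers. AMEX60DD037043 lay at 84.5 to 1411 CPM (median 322) in the low cells and 104 to 295 CPM (median 179) in the other set (0.81 ± 0.32, edgeR adjusted p = 0.0477, higher in 6 of 8 libraries). AMEX60DD049282 lay at 9.6 to 383 against 60.2 to 125 CPM (-0.28 ± 0.27, edgeR adjusted p = 0.419). With 4 or more endothelial genes both were called higher, by 1.68 and 0.72. AMEX60DD049282 was instead called lower with low cells of 0 UMIs of LYVE1 and MMRN1 (-1.60, edgeR adjusted p = 0.00914). Without a filter on low counts it was called lower as well (-0.688, edgeR adjusted p = 0.0193). VEGFC, the ligand of FLT4, lay at 111 to 1341 (median 213) against 61.9 to 186 CPM (median 115) (0.67 ± 0.24, edgeR adjusted p = 0.0326, higher in 8 of 8 libraries). Other settings ended both calls. That of VEGFC ended under DESeq2 (adjusted p = 0.0556) and without Intact 4, Intact 5 or Contra 1, and that of the first FLT1 identifier under DESeq2 (0.068) and without Intact 1, Intact 4, Intact 5, Contra 2 or Contra 5. With a library left out the edgeR adjusted p reached 0.0992 and 0.197, and with low cells of 0 UMIs of LYVE1 and MMRN1 it was 0.786 and 0.915. With 4 or more genes CD34 (1.08), NOS3 (1.21), CXCR4 (1.33), NRP1 (0.94) and a NOTCH1 identifier (AMEX60DD010485, 0.99) were called higher as well, and none of these 5 passed over all low cells. PLVAP, the protein of capillary diaphragms, did not pass in either reading (-0.70 and 0.21). The limit of 4 counts the rule's own endothelial genes, and their list median moved with it from -0.81 to 0.28. Of the 5 genes named before PLVAP, NRP1 and the NOTCH1 identifier turned below 0 with low cells of 0 UMIs of LYVE1 and MMRN1.

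The shares of all genes called, 17.5% higher and 24.1% lower over all low cells and 15.8% and 22.8% with 4 or more genes, stand against the counts by list. VEGF, TIE and BMP signalling had 2 of 18 tested identifiers called higher and 9 lower over all low cells, and 6 and 5 of 17 with 4 or more genes. For arterial genes the counts were 1 higher and 6 lower of 11, and 3 and 4 of 11. Restricted to low cells with 0 UMIs of LYVE1 and MMRN1, VEGF, TIE and BMP signalling had 0 higher and 11 lower of 16. Arterial genes then had 0 higher and 8 lower of 11, where 530 and 1243 of all 5137 genes were called. Basement membrane genes had 4 higher and 2 lower of 13, and 5 and 3 of 11, with FN1 (1.28) among the higher and SPARC, a collagen-binding protein, among the lower. SPARC lay at 26.6 to 243 CPM (median 183) in the low cells and at 740.3 to 1238 CPM (median 1096) in the other set (-2.79 ± 0.25, edgeR adjusted p = 1.55e-07), and at -2.89 with 4 or more genes. Flow-responsive genes, which endothelium switches on under shear, had 1 higher and 6 lower of 9, and 1 and 5 of 9. KLF2, the best known of them, lay at 70.6 to 161 (median 109) against 142 to 449 CPM (median 293) (-1.50 ± 0.20, edgeR adjusted p = 1.08e-05) and at -1.21 with 4 or more genes.

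The genes with the largest differences in the same direction in 8 of 8 libraries, above 50 CPM in the higher set, did not all belong to vessels. With 4 or more genes, 6 of the 12 higher ones could be tested and all 6 were called higher, and all 12 lower ones were called lower. Cells with 4 or more genes are a part of the same cells, so this reading is not independent. Averaged over the cells of the 4 kinds of sub-cluster, 6 of the 12 higher ones were highest in the connective tissue-like kind, 5 in that of sub-clusters 5, 10, 11 and 12, and 1, MUC4, in the marker-rich one. ABCA9, a lipid transporter, lay at 76.5 to 1214 CPM in the low cells and 33.6 to 168 CPM in the other set (2.46 ± 0.28, edgeR adjusted p = 2.22e-06). Its mean was 1600 CPM in the connective tissue-like kind, 89 CPM in the 5 marker-rich sub-clusters and 3322 CPM in the 7 cells of sub-cluster 11. ZNF385D lay at 133 to 773 against 19.2 to 158 CPM (2.56 ± 0.20), with 1273 and 120 CPM, and UAP1, an enzyme of hyaluronan precursor synthesis, at 17.0 to 209 against 7.91 to 28.8 CPM (2.71 ± 0.28), with 229 and 33 CPM. ANTXR1 and TNFAIP6 followed the same order.

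SLC6A2, the noradrenaline transporter, lay at 79.9 to 424 CPM against 11.8 to 61.4 CPM (AMEX60DD017768, 2.59 ± 0.28, edgeR adjusted p = 1.48e-06) and stayed higher with 4 or more genes (2.38). It was highest in sub-cluster 9, at 1280 CPM. Over both its identifiers it was found in 27.6% of low cells, in 19.8% of the LYVE1 MMRN1 set, in 47.7% of keratin-rich and in 30.0% of collagen-rich cells. Within the low cells it was found in 17 of 17 cells of sub-cluster 9 and in 4.65% of sub-cluster 3. What free RNA adds to these shares was not tested. JAK2 (AMEX60DD051741, 2.87 ± 0.49) peaked in the FCGBP sub-cluster 10 at 1212 CPM, and 1 cell gave 33.0% of its UMIs. MUC4 (AMEX60DD022880, 2.40 ± 0.30) lay at 993 CPM in endothelial-like sub-cluster 6 and at 2 CPM in sub-cluster 3. ITPKC, NBEAL1, PDE4D and ARHGAP6 had log2 differences of 1.88 to 2.18 and their highest means in the kind of sub-clusters 5, 10, 11 and 12.

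All 12 of the lower genes were higher in lymphatic-like sub-cluster 4 than in the means of the other 3 kinds. For some this rests on few cells: GPNMB and CRYBA4 were each found in 3.45% of sub-cluster 4 and LRRC3 in 6.90%. CRYBA4 and LRRC3 were higher in sub-cluster 8, at 15.8 and 22.0 CPM. PRSS23, HAPLN3 and TC2N were leading genes of sub-cluster 4, which the same counts formed. PRSS23, a serine protease, lay at 46.0 to 383 CPM (median 159) against 2216 to 3161 CPM (median 2786) (-4.51 ± 0.39, edgeR adjusted p = 1.15e-07), with 1889 CPM in sub-cluster 4 and 248 CPM in the 5 marker-rich sub-clusters. HAPLN3, a hyaluronan-binding link protein, lay at 0 to 287 against 493 to 1105 CPM (-4.78 ± 0.31), with 802 and 6 CPM. TC2N, CTSL, FGL2 and both MYO7A identifiers differed by -3.82 to -4.58. GPNMB had 2 UMIs in all low cells, CRYBA4 6, APCS 7 and LRRC3 10, against means of 60.1, 102, 103 and 90.6 CPM in the other set, and a fold is not given for so few counts. That each of the 12 was lower in the low cells of 8 of 8 libraries was a condition of being named.

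Of connective tissue markers outside the rule 3 were tested between the sets. COL6A1, a chain of type VI collagen, differed by 1.95 (1.76 with 4 or more genes) and PRRX1, a limb mesenchyme factor, by 2.93, and both were called higher, in 5 of 8 libraries each. COL5A1 did not pass (0.54, edgeR adjusted p = 0.177). COL1A1, COL1A2, COL3A1, DCN and LUM are in the rule, which capped them without balancing them between the sets, and lay 1.03 to 2.21 higher, as a description. The summed list, rule genes included, lay at 479 to 7045 CPM in the low cells and at 675 to 2186 CPM in the LYVE1 MMRN1 set. Its part in the other differences was not tested.

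Cell cycle genes were compared because the gate selects a doubled DNA content. S phase genes were lower in the low cells: of 10 tested identifiers 9 were called lower and 0 higher (list median -1.82 against 0.08 over all genes), and with 4 or more genes 6 and 0 of 7. The shares of all genes called lower in these readings were 24.1% and 22.8%. PCNA.L, the replication clamp, lay at 0, 21.1, 136 and 0 CPM in the low cells of Intact 1, 3, 4 and 5 and at 66.2, 41.2, 67.1 and 61.7 CPM in Contra. In the LYVE1 MMRN1 set it lay at 149 to 300 CPM, so that every low value was below every value there (-2.07 ± 0.29, edgeR adjusted p = 1.73e-05, and -1.73 with 4 or more genes). MCM3 and MCM6, parts of the replicative helicase, differed by -2.19 ± 0.30 and -2.27 ± 0.25. RRM2, which makes deoxynucleotides, differed by -2.73.

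Of 35 identifiers of the G2 and M phases 13 were called lower and 1, a CENPF identifier, higher, with a list median of -0.47 (-0.30 with library totals in place of TMM factors, where 10 were lower and 1 higher). With 4 or more endothelial genes 10 of 20 were lower and 0 higher. Of all genes, 24.1% were called lower over all low cells, 20.3% with library totals and 22.8% with 4 or more genes. TUBB4B, an abundant tubulin of the list, lay at 95.8 to 523 CPM (median 324) against 724 to 1201 CPM (median 941) (-1.65 ± 0.26, edgeR adjusted p = 6.42e-05), with 43 CPM in the connective tissue-like sub-clusters, 1123 CPM in sub-cluster 3 and 86 to 228 CPM in the other marker-rich ones. HMGB2, JPT1 and LBR were among the other lower genes, while ANLN (AMEX60DD015445), BUB1 and SMC4 did not pass (-0.47, -0.20 and -0.39), and TOP2A passed with 4 or more genes only (-0.59 and -1.27). The summed S phase list lay at 0 to 425 CPM in the low cells and 590 to 943 CPM in the other set, and the G2 and M list at 1358 to 3016 against 3270 to 5034 CPM. Among cells of 4000 to 20000 UMIs in both sets, where edgeR called 2311 of 5662 genes (40.8%, 13.8% higher and 27.0% lower), 6 of 7 S phase and 9 of 19 G2 and M phase identifiers were lower and none was higher.

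Cell by cell, 2000 UMIs were drawn from each cell, and a cell counted if 3 or more of them came from the G2 and M list. The 67 low cells with fewer UMIs were left out, as were 46 cells of the LYVE1 MMRN1 set. The share was 100%, 56.7%, 61.9% and 85.7% of low cells in Intact 1, 3, 4 and 5, the first from 1 cell, and 59.2%, 67.6%, 70.7% and 65.8% in Contra 1, 2, 3 and 5. In the LYVE1 MMRN1 set it was 81.3% to 89.5%. The means were 70.9% ± 14.8 and 85.0% ± 2.63 (SD, n = 8), and the low cells were lower in 7 of 8 libraries by a mean of 14.0 points (2-sided exact paired permutation test, p = 0.0234, where 0.0078 is the smallest it can give). It was 15.1 points with 4 or more endothelial genes (exact paired permutation p = 0.0312, lower in 6 of 8). Without TUBB4B it was 10.8 points (exact paired permutation p = 0.0859). With 4000 UMIs drawn it was 5.55 points, and asking for 5 or more UMIs of the list it was 32.2 points (exact paired permutation p = 0.0312 and 0.0078). Before any UMIs were drawn the same cells stood at 97.1% and 98.4% (exact paired permutation p = 0.312). What free RNA adds to these shares was not tested, and no statement on cycling follows from them.

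**Figure D5:**
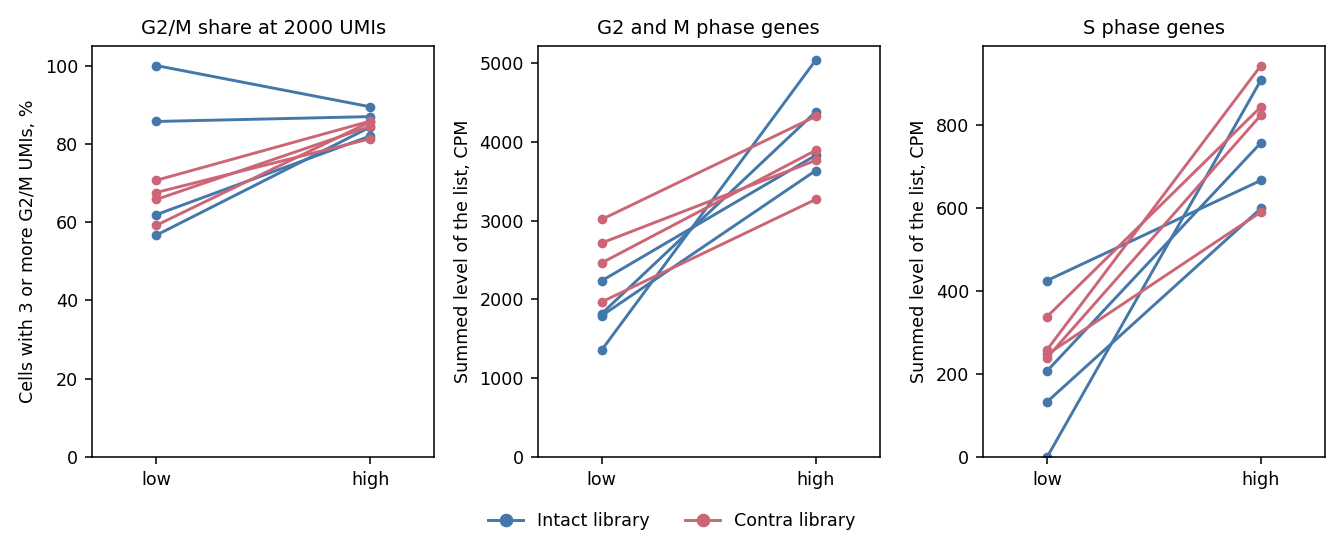
Each line joins the low cells and the LYVE1 MMRN1 set of 1 library. The left panel gives the percentage of cells with 3 or more G2 and M phase UMIs among 2000 drawn, the other panels the summed CPM of the G2 and M phase and the S phase lists. Both summed lists are lower in the low cells of 8 of 8 libraries, and the share in 7 of 8.

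Between the groups the share of low cells with G2 and M transcripts averaged 76.1% ± 20.4 (SD) over 4 Intact and 65.8% ± 4.86 (SD) over 4 Contra libraries. The difference of -10.3 points was within the spread between libraries (2-sided exact permutation test, p = 0.4, adjusted 0.8). Its direction depended on the settings. Asking for 5 or more UMIs turned it to 21.3 points higher in Contra (exact permutation p = 0.0286, the smallest possible), with 0% in Intact 1, 14.3% to 30.0% in the other Intact libraries and 32.4% to 42.1% in Contra. Intact 1 and Intact 5 rest on 1 and 7 cells here, and within numbers 1 and 3 the main difference was -13.4 points and within the others -7.13 points.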

How the data were processed

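Limb cells freed with liberase were stained, sorted for live 4 C cells and made into 10x Genomics 3' libraries, per the labels' protocols. The authors deposited 1 matrix of whole-number UMI counts for 60956 genes and 34149 cells with no normalization. The submitters' processing notes name kallisto 0.48.0 and Seurat 4.2.0 without their roles, and the genome build and the use of strand are not given in the sources used here. Libraries came from barcode prefixes, and symbols from the text after the last hyphen before each identifier, for 25834 identifiers. Some identifiers stand for several names, so each row was kept apart. The members and gene lists were chosen with earlier results of these data known.

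Counts were summed per library and set and fitted with edgeR 4.0.16 (quasi-likelihood, TMM, filterByExpr, Benjamini-Hochberg over all genes tested) in R 4.3.3, with DESeq2 1.42.0 as an alternative. The steps were tested on simulated data with known changes, and the depth of the member sums limits precision, most of all between the groups and in the interaction. Sub-clusters came from scanpy 1.11.5 (Leiden, resolution 1, 12 neighbours, 15 components, 1500 genes). The genes named were the 10 smallest p in each direction between groups, the 12 largest differences in each direction between sets with the same sign in 8 libraries and at least 50 CPM, and the 5 smallest p of the interaction, beside members of the lists. A chi-square statistic per degree of freedom of 1.79 or more for each pair of libraries gave no sign of a library deposited again under another name. Alternatives covered normalization, filters on low counts, left-out libraries, the limits of the rule, doublet scores, depth and the replicate number. Intervals are exact Clopper-Pearson intervals.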

Additional observations from a re-analysis of the deposited data

Results flagged for a closer look

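Values were examined in 106 groups of 4 libraries, for the shares, the depth and the genes named by rule, and 12 held a library far from its other 3. Chance flags about 1 in 20 such groups. The median of 14366.5 UMIs per low cell in Intact 3 stood far above the other Intact libraries. In Intact 3, with 43.8% of its low cells in the connective tissue-like sub-clusters, ZNF385D at 663 CPM and ABCA9 at 891 CPM also lay far above the other Intact libraries, as did APCS at 5.76, LRRC3 at 5.76 and FGL2 at 9.6 CPM, which rest on few UMIs beside libraries at 0. HAPLN3 in Intact 1 lay at 287 CPM, or 3 UMIs. In Contra, FGL2 stood out at 108 CPM in Contra 3, RASAL2 at 123 CPM and GPNMB at 3.89 CPM in Contra 1, TC2N at 52.9 CPM in Contra 5 and, on the low side, EPHB4 at 15.4 CPM in Contra 3.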

How the results depend on the processing

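With every gene that had a count kept, edgeR called 14 genes between the groups, 6082 between the sets and 30 in the interaction, and DESeq2 called 1 in the interaction. Between the sets it called 1773 genes with 0 UMIs of LYVE1 and MMRN1 in the low cells, 2076 with 4 or more endothelial genes (2143 without Intact 1, an alternative chosen after seeing the data) and 1707 for cells with 0 against 10 or more UMIs. Leaving out each library gave 0 to 118 genes between groups, 2613 to 3737 between sets and 0 to 38 in the interaction, the highest first and last counts without Intact 3. It gave 0.183 to 0.381 points for the share among all cells, -2.25 to 3.0 for the share among endothelial cells, -16.7 to -2.29 for the G2/M share between groups, -17.6 to -12.1 for that between sets and -1163 to 3113 UMIs for depth. The G2/M difference between groups turned to 9.97 points with 1000 UMIs drawn, 3.14 with 4000 and 21.3 with 5 or more UMIs of the list. The depth difference turned to -62.1 UMIs with 0 UMIs of LYVE1 and MMRN1 and to -240.5 without the highest doublet scores. The G2/M difference between sets weakened to -10.8 points without TUBB4B and -1.28 without drawing, and moved to -5.55 with 4000 UMIs drawn and -32.2 with 5 or more UMIs of the list. Of the genes named between the sets, 21 values reversed. FLT1 (AMEX60DD037043) went to -0.061 with 0 UMIs. FLT1 (AMEX60DD049282) went to 0.72 with 4 or more genes (0.71 also without Intact 1), 0.083 below 0.5% collagen and keratin, and from -0.45 to 0.0020 over the left-out libraries, the last without Intact 3. NOTCH1 (AMEX60DD010485) went to -0.35 without a filter, -1.24 with 0 UMIs, -0.017 without the highest doublet scores, -0.72 for 0 against 10 or more UMIs, and from -0.21 (without Intact 5) to 0.34 over the left-out libraries, also below 0 without Intact 4. NOS3 went to -0.16 without a filter and from -0.0337 (without Intact 5) to 0.52 over the left-out libraries, also below 0 without Contra 2, and CXCR4 to -0.20 without a filter. NRP1 went to -0.23 without a filter, from -0.0262 (without Intact 5) to 0.30 over the left-out libraries, -0.81 with 0 UMIs and -0.20 for 0 against 10 or more. PLVAP went to 0.21 with 4 or more genes (0.23 also without Intact 1). The causes were not tested.

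Numbers 1, 3 and 5 occur in both groups, but the deviations of same-numbered libraries correlated at 0.0390, 0.248 and 0.230, so the numbers did not clearly pair the libraries. With the replicate block edgeR called 0 genes between the groups (274 at an unadjusted p under 0.05), and the paired differences were 0.449 points for the share among all cells, -0.144 for that among endothelial cells, -15.6 for the G2/M share and -407.8 UMIs for depth.

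With 5 low cells in Intact 1 and 16 in Intact 5, values there are coarse, and differences between the groups smaller than that spread were not detectable at this depth.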

Other observations

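Adrenergic receptors, which the study's title concerns, were barely seen in the low cells. ADRA1D had 75 UMIs in 22 of them (28.1 CPM against 6.89 CPM in the LYVE1 MMRN1 set), the 2 identifiers of ADRA1A 30 and 33 UMIs (11.2 and 12.4 against 3.92 and 9.50 CPM), and 2 identifiers of ADRB1 11 and 12 UMIs (4.12 and 4.50 against 2.70 and 6.93 CPM). ADRA2A and ADRA1B had 1 UMI each, and ADRA2B and ADRA2C had 0. None was frequent enough to be tested.

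Immediate early genes differed in both directions between the sets, 3 of 10 tested identifiers called higher and 5 lower in the low cells (1 and 5 of 9 with 4 or more endothelial genes), where 17.5% and 24.1% of all genes were called. JUN lay at 0 to 147 CPM against 131 to 555 CPM (-2.33 ± 0.21, edgeR adjusted p = 2.14e-07, and -2.19 with 4 or more genes), and NR4A1 was called higher (1.03 and 0.99). Junction genes had 2 of 13 higher and 4 lower (3 and 2 of 12 with 4 or more genes), shares near those of all genes. CLDN5, the tight junction protein of vessels, was lower (-2.23 and -1.24) and OCLN, a tight junction protein, higher (0.93 and 1.47). Of genes of clotting and vascular tone 3 of 13 were called higher, among them both F8 identifiers (0.72 and 0.90), and 5 lower (5 and 5 of 12 with 4 or more genes), among them the coagulation inhibitor TFPI (-0.89 and -1.18). The call of THBD, the partner of thrombin, ended with 4 or more genes (-1.40 and -0.67, edgeR adjusted p = 0.000769 and 0.067).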
